A study of Saccharomyces cerevisiae with 6 samples.

Results

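ETS2 is the 3′ external transcribed spacer of the yeast 35S ribosomal RNA gene, the last stretch that RNA polymerase I (Pol I) copies after the 25S rRNA. It was taken as the 211 positions that the deposited table assigns to ETS2, 3.08% of the positions of the 35S gene, which are numbered from 1 at the start of the gene. It holds 35 consecutive residues marked as cleaved by Rnt1 (6663 to 6697), the terminator position T1 (6739) and an 11-position binding site for Reb1 and Nsi1 (6757 to 6767). The members were chosen by place in the gene and not by a measured value. NET-seq captures Pol I with its nascent RNA and sequences the 3′ end of that RNA, so that each read marks the last base of 1 captured RNA. There were 3 WT and 3 spt4△ libraries of Saccharomyces cerevisiae, from cells grown at 30 °C to an OD600 of 0.3.

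Both strains carried can1-100, his3-11,15, ade2-1, leu2-3, 112, ura3-1 and trp1-1, and both had Rpa135, the second largest Pol I subunit, fused to the tag (HA)3-(His)7, by which Pol I was captured. In WT the tag was marked with TRP1mx6, the chromosomal RPA190 gene was replaced (rpa190Δ::HIS3Mx6), and the largest Pol I subunit came from the plasmid pRS315-RPA190. In spt4△ the tag was marked with URA3mx6 and SPT4 was deleted (spt4△::HIS3), and no change at RPA190 was listed. Spt4 forms with Spt5 an elongation factor that rides on the transcribing polymerase. The plasmid-borne RPA190 and the markers differ between the strains together with SPT4, so their parts in any difference cannot be told apart.

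Rnt1 is the yeast RNase III. It cuts both strands of an RNA stem capped by a loop of the form AGNN, and in ETS2 it cuts while Pol I is still transcribing, which separates the pre-rRNA from the polymerase. The RNA still held by Pol I then has a free 5′ end for the exonuclease Rat1. Downstream, Reb1 and Nsi1 are Myb-like proteins that bind the DNA after T1, and a bound protein there stalls Pol I at the terminator. NET-seq counts any 3′ end in the captured RNA, so an end left by a cut and an end inside Pol I cannot be told apart.

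The sequences were read from the deposited table and matched to genome build R64, where the gene is read from the minus strand of chrXII. The bases of the whole gene matched the copy at 460712 to 467569 and the copy at 451575 to 458432 with 0 mismatches, and the 2 copies were counted together. ETS2 itself is chrXII:460712-460922 in the first of these. Of the 211 positions, 210 had a preceding stretch of 30 bases found only in these 2 copies, the exception being the first. The whole spacer is shown so that the features can be located, with capitals for the Rnt1 residues, T1 and the Reb1/Nsi1 site in that order.
ETS2: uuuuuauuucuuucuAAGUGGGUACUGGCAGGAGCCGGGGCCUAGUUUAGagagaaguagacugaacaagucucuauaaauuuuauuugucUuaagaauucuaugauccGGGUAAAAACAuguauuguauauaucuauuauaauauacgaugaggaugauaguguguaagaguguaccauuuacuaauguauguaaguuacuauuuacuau

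The Rnt1 residues (chrXII:460873-460907) are shown alone because the changes turn on places within them, with the loop in capitals.
Rnt1 hairpin: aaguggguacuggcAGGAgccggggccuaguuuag
RNAfold paired 24 of the 35 bases, at -15 kcal/mol, around 1 loop of 4 bases, AGGA, at 6677 to 6680. A stretch AGNN flanked by 3 base pairs occurred 1 time in ETS2 and 11 times in the gene, and 4.19% of all 35-position windows held one. The heptamer CGGGTAA, a core of the Reb1 binding sequence searched on both strands, began at 6756, 1 base before the marked site. It occurred 1 time in ETS2 and 3 times in the gene, in 0.307% of 13-position windows. These matches describe the letters only. GC content was 60.0% in the Rnt1 residues and 31.8% in ETS2, against 45.0% in the gene. In the 30 positions before T1, 46.7% of the bases were U.

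The spt4△ libraries were much shallower than the WT libraries. The reads recovered from the table numbered 5545592 to 10024580 per WT library and 307372 to 482329 per spt4△ library. Of these, 34624, 18650 and 35656 reads lay in ETS2 in WT replicates 1, 2 and 3, and 2351, 2293 and 1400 in spt4△. Values are given in rpm, reads scaled to a total of 1000000 reads up to T1. A single read in a WT library was worth 0.0998 to 0.180 rpm, and in an spt4△ library 2.07 to 3.25 rpm. The floor was taken as 3 reads, between 0.299 and 0.541 rpm for WT and between 6.22 and 9.76 rpm for spt4△. Positions at 0 numbered 7, 16 and 4 of the 211 in WT replicates 1 to 3, and 64, 66 and 79 in spt4△. A low value in spt4△ therefore often meant 0, 1 or 2 reads. Spearman's rho over the 211 positions, a description over points that share a library, was 0.951 to 0.967 between WT replicates, 0.753 to 0.788 between spt4△ replicates and 0.684 to 0.799 across strains.

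The first question was whether Pol I occupancy of ETS2 as a whole differed between strains. ETS2 held 3455, 3364 and 4046 rpm in WT and 4876, 5225 and 4557 rpm in spt4△. All 3 spt4△ libraries were above all 3 WT libraries. The WT mean was 3621 ± 370 rpm and the spt4△ mean 4886 ± 335 rpm (SD, n = 3 each), a log2 difference of 0.43 (two-sided exact permutation p = 0.1, the smallest that 3 against 3 allows). Scaled to the summed spacers in place of the library total, the difference turned to -0.08. The spacer total includes ETS2 itself, and its longest part is ETS1 at the 5′ end, with 700 positions. ETS1 held 42.5 ± 6.71 rpm per position in WT and 70.7 ± 1.91 rpm in spt4△, so this scaling largely follows ETS1. Per position, ETS2 was sparsely occupied beside 25S, at 17.2 ± 1.76 rpm in WT and 23.2 ± 1.59 rpm in spt4△ against 181 ± 2.07 and 171 ± 2.01 rpm. Low occupancy was shared with other spacers, at 21.9 and 26.7 rpm in ITS1 and 43.6 and 38.7 rpm in ITS2 (WT and spt4△ means). Up to T1 alone, ETS2 held 36.7 and 48.7 rpm per position, above ITS1, and after T1 it held 2.07 and 3.45 rpm.

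Set against the other spacers within each library, ETS2 did not stand on one side. Relative to ITS2, between 5.8S and 25S, ETS2 was higher in spt4△ by 0.60 on the log2 scale, without overlap of the libraries. Relative to ETS1, at the 5′ end, it was lower by 0.31 (log2 difference -0.31), also without overlap. Relative to ITS1, between 18S and 5.8S, the difference was 0.14 and the libraries overlapped. The two-sided exact permutation p was 0.1 for ETS1 and ITS2 and 0.2 for ITS1, which became 0.15, 0.15 and 0.2 after Benjamini-Hochberg adjustment over the 3 ratios. With the median over positions in place of the mean, the differences were 0.43, -0.19 and 0.37 for ITS2, ETS1 and ITS1, and the libraries overlapped for all 3 (exact permutation p = 0.2, 0.6 and 0.2).

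T1 apart, the mean occupancy per position fell from each segment of the spacer to the next in both strains, though not evenly within them. From the last 10 Rnt1 residues to the 10 positions after them it rose, from 9.18 to 19.6 rpm in WT and from 8.90 to 15.1 rpm in spt4△. Before the first Rnt1 residue, positions 6661 and 6662 held 1417 of the 2079 rpm in WT and 1709 of the 2743 rpm in spt4△. In WT the mean per position was 139 rpm in the 15 positions before the first Rnt1 residue, 19.5 rpm in the Rnt1 residues and 12.3 rpm from there to T1. It was 5.69 rpm between T1 and the Reb1/Nsi1 site, 2.28 rpm in the site and 1.37 rpm after it. The spt4△ means followed the same order, with 183, 27.7, 13.9, 11.4, 5.85 and 1.68 rpm. T1 itself, a single position, stood out from its surroundings at 107 rpm in WT and 194 rpm in spt4△.

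**Figure D1:**
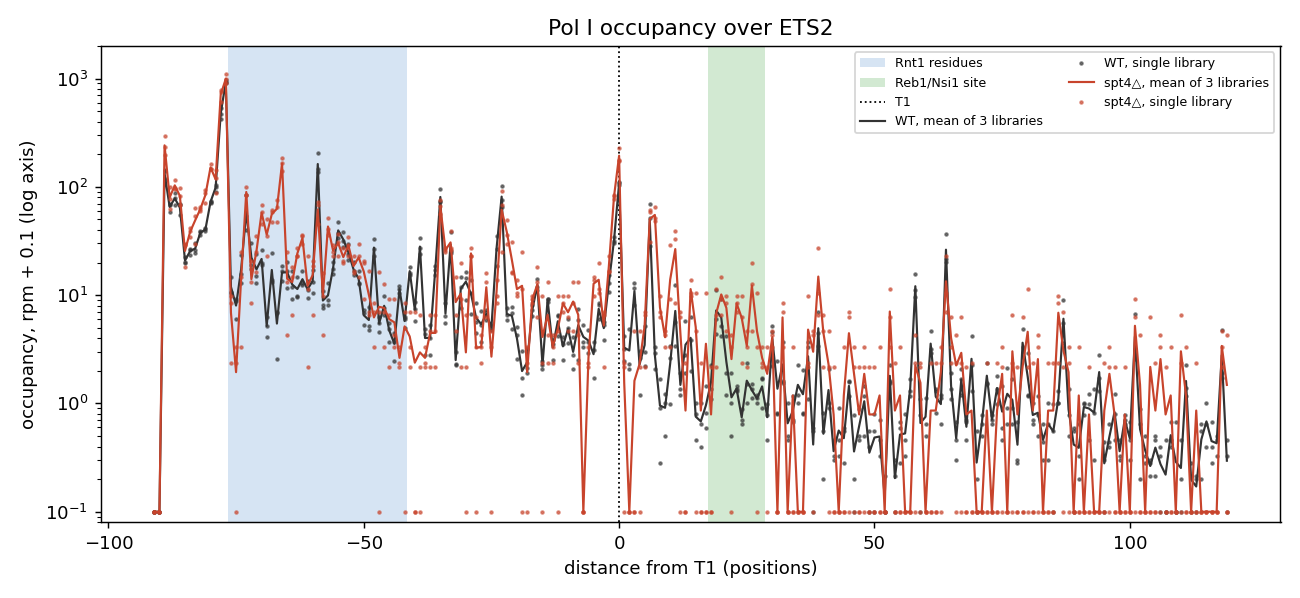
Pol I occupancy over ETS2, as rpm + 0.1 on a log axis against the distance from T1 in positions. Lines are the means of 3 libraries and points single libraries, WT dark and spt4△ red, with the Rnt1 residues and the Reb1/Nsi1 site shaded and T1 dotted. In both strains the highest point lies at -77, directly before the Rnt1 residues, and in spt4△ many points after T1 lie at 0.

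Of the 7 segments, 5 had all spt4△ libraries above all WT libraries. These were the stretch before the Rnt1 residues, the Rnt1 residues, T1, the stretch from T1 to the Reb1/Nsi1 site and the site. Their folds of the mean were 1.32, 1.42, 1.81, 2.00 and 2.57 (each exact permutation p = 0.1, adjusted to 0.14 over the 7 segments). The stretch from the Rnt1 residues to T1 had a fold of 1.13 (exact p = 0.3) and the 91 positions after the site one of 1.23 (exact p = 0.4), and in both the libraries overlapped. With the spacers as the total, the log2 difference turned to -0.12 before the Rnt1 residues, to -0.33 between them and T1 and to -0.18 after the site. It was then 0.01 in the Rnt1 residues and kept its sign at T1, between T1 and the site, and in the site.

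**Figure D2:**
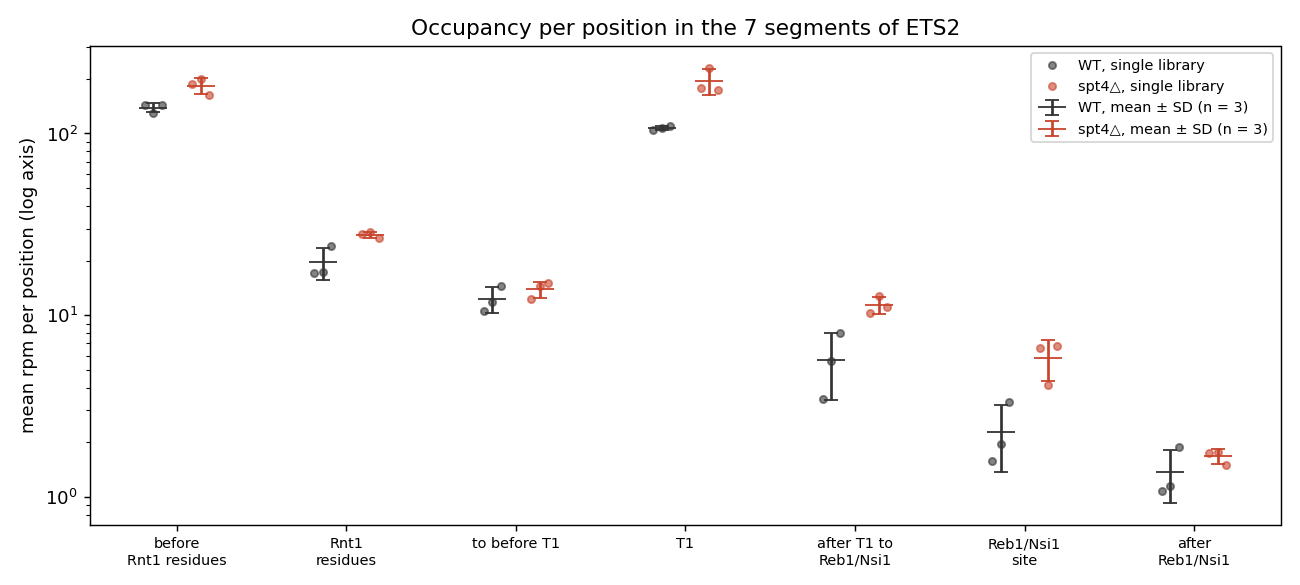
Mean rpm per position on a log axis in the 7 segments of ETS2, with bars for mean ± SD (n = 3) and points for single libraries, WT dark and spt4△ red. The strains are furthest apart in the Reb1/Nsi1 site, at 2.28 and 5.85 rpm, and overlap between the Rnt1 residues and T1 and after the site.

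Single positions were then compared with limma on log2(rpm + 1), adjusted by Benjamini-Hochberg over all 6848 positions of the gene that had a read. Of 209 ETS2 positions tested, 39 were called higher in spt4△ and 17 lower (adjusted p under 0.05), and 153 were not called. The first 2 positions of ETS2, next to 25S, were at 0 in all 6 libraries. The called share was 26.8% in ETS2 and 46.2% over the gene. Higher calls made up 18.7% of ETS2 positions beside 25.2% over the gene, and lower calls 8.13% beside 21.0%. The median log2 change was 0.18 in ETS2 and 0.08 over all positions. The share called was thus below that of the gene, in a spacer whose median position held 2.69 rpm in WT and 3.92 rpm in spt4△, beside 97.1 and 106 rpm over the gene.

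Up to T1, 26 positions were higher and 11 lower of 90 tested, and after T1 13 were higher and 6 lower of 119. These are 28.9% and 12.2% up to T1 and 10.9% and 5.04% after it, beside 25.2% and 21.0% over the gene. The lower calls were thin: in 12 of the 17 every spt4△ library held under 3 reads, and only 2 of the 17 had 3 or more reads in every spt4△ library. Of the 39 higher calls, 29 had 3 or more reads in every spt4△ library. The edgeR quasi-likelihood test on the recovered reads called 41 higher and 12 lower, with 48.2% of positions called over the gene, 27.1% higher and 21.1% lower. Of its calls, 46 were shared with limma, all 46 in the same direction. Libraries did not overlap between strains at 45 higher and 40 lower positions, against 56.6% of positions without overlap over the gene, 30.7% higher and 25.9% lower. Of those 40, 34 held under 3 reads in every spt4△ library and 24 held none, and 24 lay past the Reb1/Nsi1 site. With the spacers as the total, 21 positions were higher and 30 lower, beside 578 and 2945 of the 6848 over the gene. With the median position as the total, 37 were higher and 20 lower, beside 1365 and 1781 over the gene. Without WT replicate 1 or 2 the higher calls dropped to 25 and 24, and without WT replicate 2 or 3 the lower calls dropped to 11 and 10. Calls dropped over the gene as well. There the higher calls went from 1725 to 1219 and 1337, and the lower calls from 1441 to 1136 and 1169.

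**Figure D3:**
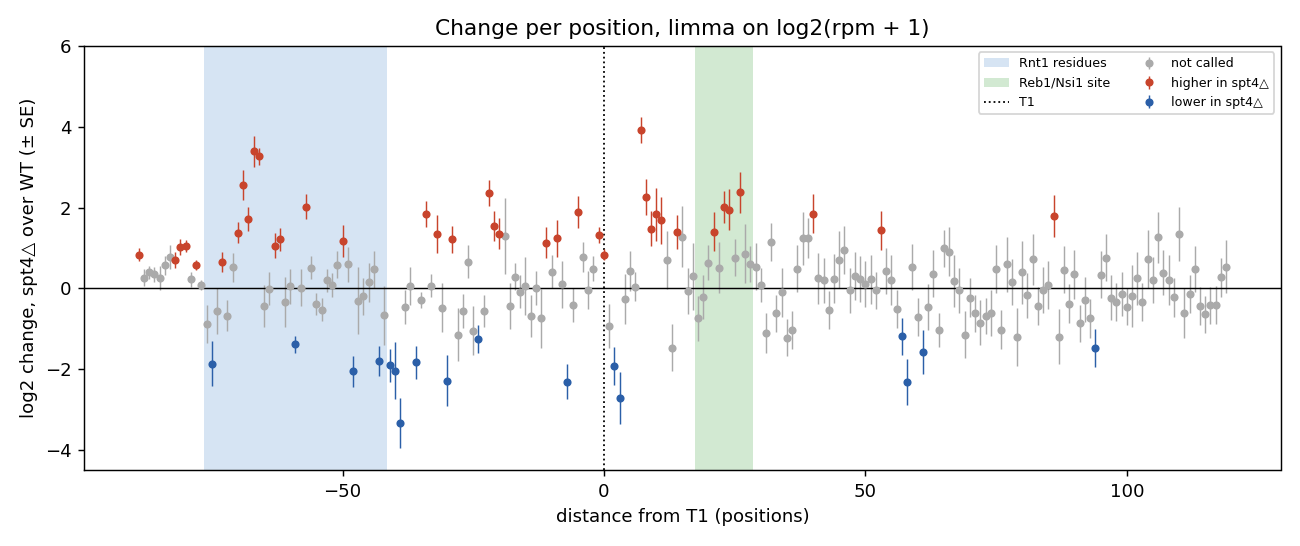
Log2 change per position in spt4△ over WT (± SE) from limma on log2(rpm + 1), against the distance from T1 in positions, with higher calls in red, lower calls in blue and positions not called in grey. The largest rises are 3.92 at +7 and 3.39 at -67, and the largest fall is -3.33 at -39.

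Summing 10 positions at a time gave deeper values. Of 21 bins, limma called 9 higher and 0 lower (unadjusted p under 0.05 also 9 and 0), where over the gene 62.8% of bins were called, 32.9% higher and 29.9% lower. The edgeR test gave 9 and 0 as well, and DESeq2 8 and 0, with 9 and 1 before adjustment. Over the gene edgeR called 219 bins higher and 203 lower, and DESeq2 210 and 215. The higher bins covered the first 30 positions of ETS2, then 6718 to 6767 and 6778 to 6787. The largest was 6668 to 6677, in the first strand of the Rnt1 hairpin and the first base of its loop, with 111, 126 and 171 rpm in WT and 500, 495 and 465 rpm in spt4△. Its log2 change was 1.85 ± 0.18 (SE, limma adjusted p = 8.11e-08). The bins from 6678 to 6717, which run from the second base of the loop past its second strand, were not called, with log2 changes from -0.36 to -0.02. The changes of the other called bins were 0.59 in the first 10 positions of ETS2 and 0.32 at 6658 to 6667, before and at the first Rnt1 residues. They were 0.68 and 0.66 at 6718 to 6737, before T1, 0.89 at 6738 to 6747, which holds T1, and 1.70 at 6748 to 6757, which holds the first base of the Reb1/Nsi1 site. The last 2 were 1.43 at 6758 to 6767 and 1.46 at 6778 to 6787. With the spacers as the total, 5 bins were higher and 6 lower, beside 60 and 427 of 686 over the gene.

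The highest occupancy of ETS2 lay directly before the first Rnt1 residue. The sequences around the positions described next are given with the last added base in capitals, each with 12 bases before it and 8 after.
Position 6662 (chrXII:460900-460920): uuuauuucuuucUaagugggu
Position 6673 (chrXII:460889-460909): cuaaguggguacUggcaggag
Position 6680 (chrXII:460882-460902): gguacuggcaggAgccggggc
Position 6662 was the highest and 6661 the second highest in all 6 libraries, and together they held 36.1% to 42.1% of the ETS2 reads in WT and 33.3% to 36.2% in spt4△. At 6662 the values were 980, 907 and 932 rpm in WT and 981, 1092 and 911 rpm in spt4△. The strains overlapped there, and the log2 change was 0.08 ± 0.13 (SE, limma adjusted p = 0.63). At 6661 they were 475, 427 and 529 rpm in WT and 782, 757 and 605 rpm in spt4△. All spt4△ libraries were higher at 6661, by a log2 change of 0.58 ± 0.13 (limma adjusted p = 0.0046), and the call was lost with the spacers as the total (log2 change 0.06, adjusted p = 0.79). Position 6650, nearer the end of 25S in the same U-rich stretch, held 143, 119 and 139 rpm in WT and 234, 292 and 199 rpm in spt4△. It rose by 0.84 (limma adjusted p = 0.0011), a call also lost with the spacers as the total (0.32, adjusted p = 0.15).

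Occupancy dropped at once where the marked residues began. At 6663, the first Rnt1 residue, the libraries held 10.7, 10.3 and 14.5 rpm in WT and 8.30, 2.28 and 9.76 rpm in spt4△. Of the reads at 6662 and 6663 together, 1.25% lay at 6663 in WT (292 of 23353, exact 95% interval 1.11 to 1.40) and 0.645% in spt4△ (8 of 1240, 0.279 to 1.27). The intervals, which cover counting error only, overlapped. The ratio of 6663 to 6662 was lower in all spt4△ libraries, at 0.00846, 0.00209 and 0.0107 beside 0.0109, 0.0113 and 0.0156 in WT (exact permutation p = 0.1). The change at 6663 was not called (log2 change -0.88, limma adjusted p = 0.15). It was called lower with the spacers as the total (-1.33, adjusted p = 0.020).

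Within the first strand of the hairpin the strains separated. In WT the 5 positions 6669 to 6673, a window chosen after their values were seen, averaged 10.5, 12.6 and 15.9 rpm. In spt4△ they averaged 76.7, 74.7 and 74.2 rpm, which was 5.78 times the WT mean. At 6673 the values rose from 13.4, 18.6 and 16.5 rpm in WT to 185, 141 and 166 rpm in spt4△, a log2 change of 3.27 ± 0.22 (limma adjusted p = 1.7e-06). At 6672 they rose from 2.49, 6.67 and 6.92 rpm to 47.7, 75.2 and 65.1 rpm (log2 change 3.39 ± 0.38, limma adjusted p = 4.4e-05), and at 6670 from 3.99, 5.05 and 6.24 rpm to 35.3, 50.1 and 22.8 rpm (2.55 ± 0.37, limma adjusted p = 0.00025). These 3 positions were higher in every spt4△ library than in any WT library, and kept their calls under every alternative run. Position 6673 lies 4 bases before the first base of the loop.

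Within the loop, 1 base was called higher and 1 lower. The first, 6677, rose from a mean of 13.9 rpm in WT to 33.6 rpm in spt4△ (log2 change 1.22, limma adjusted p = 0.0044). Position 6680, the last base of the AGGA loop, held 146, 138 and 203 rpm in WT and 45.6, 68.4 and 71.6 rpm in spt4△. Its mean fell from 162 ± 35.5 rpm to 61.9 ± 14.2 rpm (log2 change -1.38 ± 0.21, limma adjusted p = 0.00034). With 22, 30 and 22 reads in the spt4△ libraries, it was 1 of the 2 lower calls with 3 or more reads in each of them. At 6682, beyond the loop, the mean was again higher, at 42.9 rpm beside 9.84 rpm in WT (log2 change 2.03, limma adjusted p = 0.00032). At 6697, the last Rnt1 residue, the values were 5.89, 4.87 and 6.24 rpm in WT and 8.30, 6.84 and 0 rpm in spt4△ and overlapped. Of the 35 Rnt1 residues, 10 were called higher and 4 lower, 28.6% and 11.4% beside 25.2% and 21.0% over the gene.

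**Figure D4:**
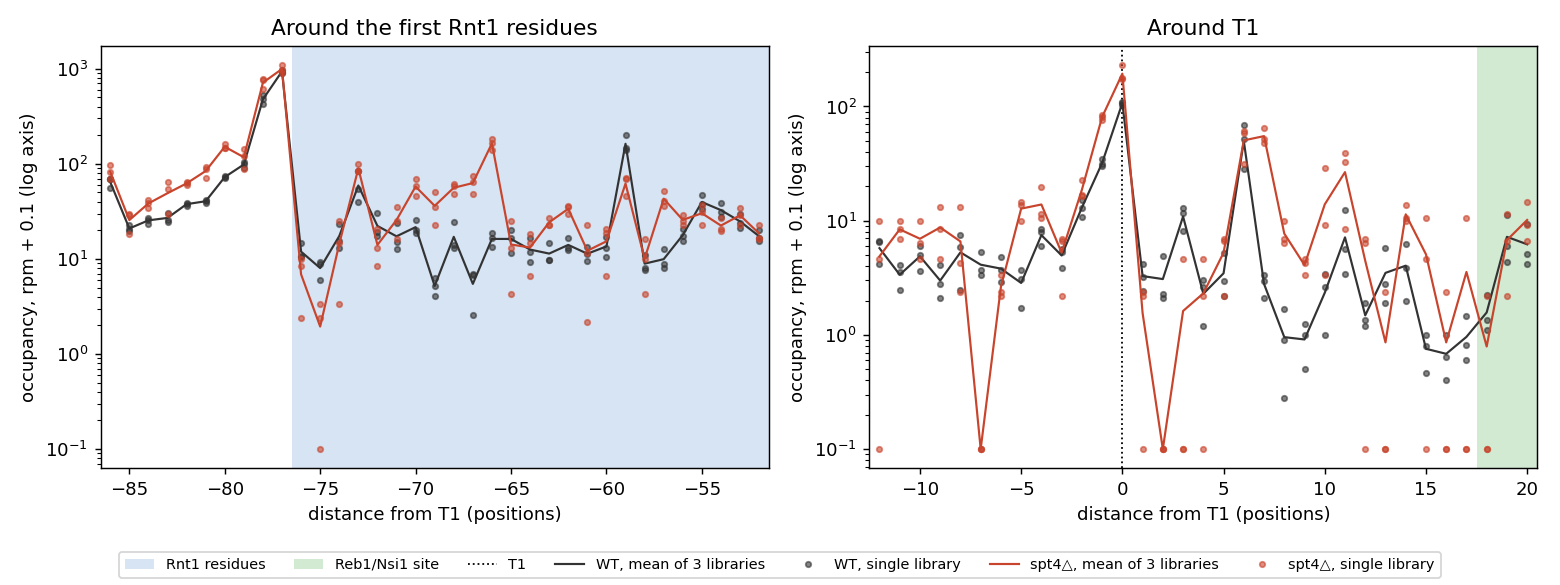
Occupancy around the first Rnt1 residues (left) and around T1 (right), as rpm + 0.1 on a log axis against the distance from T1 in positions, with lines for means of 3 libraries and points for single libraries. The spt4△ libraries (red) lie above WT (dark) at -66, where they hold 141 to 185 rpm, and at +7, where they hold 47.9 to 65.1 rpm.

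Ratios within a library do not depend on its total. The 10 positions after the Rnt1 residues held 18.1, 17.6 and 23.0 rpm per position in WT and 13.5, 16 and 15.9 rpm in spt4△, and the 10 positions before them 180 ± 9.25 and 232 ± 20.7 rpm. The log2 ratio of after to before was -3.36, -3.27 and -3.01 in WT and -4.16, -3.95 and -3.71 in spt4△. Thus the drop across the Rnt1 residues was deeper in all spt4△ libraries, by a log2 difference of -0.72 (exact permutation p = 0.1). It was -2.33 with windows of 5 positions and -0.59 with windows of 20. Taken at each edge of the residues by itself, as added after seeing the data, the first 10 residues against the 10 before differed by 0.66 and the 10 after against the last 10 residues by -0.33, both with exact p = 0.1. At the second edge occupancy rose in both strains, by a mean log2 ratio of 1.09 in WT and 0.76 in spt4△, so the -0.33 is a smaller rise. The first difference turned to -0.20 with windows of 5 and the second to 0.06 with windows of 20.

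Between the Rnt1 residues and T1, 10 of 41 positions were higher and 7 lower, 24.4% and 17.1% beside 25.2% and 21.0% over the gene. On the log2(rpm + 1) scale the largest fall of ETS2 was at 6700, from 27.0, 23.6 and 33.2 rpm in WT to 2.07, 0 and 6.51 rpm in spt4△ (log2 change -3.33 ± 0.61, limma adjusted p = 0.0011). In spt4△ this was 3 reads in all (exact Poisson interval 0.619 to 8.77), where the WT mean would have given 34.4 reads at the same depth. The log2 change ran from -4.62 with pseudocount 0.1, where the fitted changes at 6732 and 6742 were -5.33 and -4.89, to -1.59 with pseudocount 10. Position 6709 held 8.88, 14.4 and 16.3 rpm in WT and again 3 reads in spt4△, where 16.2 would match the WT mean. It was called lower (limma adjusted p = 0.012), and without WT replicate 3 it was not (adjusted p = 0.064). At 6732 the WT libraries held 3.59, 3.25 and 5.22 rpm and the spt4△ libraries 0 reads, but the WT level lay under the spt4△ floor, so no fold was taken.

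T1 had the highest mean occupancy of the positions after the Rnt1 residues in both strains. It is shown with the position 7 bases after it, which was called higher.
Position 6739 (chrXII:460823-460843): auuuuauuugucUuaagaauu
Position 6746 (chrXII:460816-460836): uugucuuaagaaUucuaugau
The values at T1 were 104, 108 and 110 rpm in WT and 178, 230 and 172 rpm in spt4△. The spt4△ libraries were all higher, with a log2 change of 0.84 ± 0.14 (limma adjusted p = 0.00066), and the call was lost with the spacers as the total (0.32, adjusted p = 0.13). As a share of the ETS2 reads of its library, T1 held 3.01%, 3.20% and 2.72% in WT and 3.66%, 4.4% and 3.79% in spt4△ (log2 difference 0.41, exact permutation p = 0.1). The 10 positions before T1 held 8.04 ± 0.764 rpm per position in WT and 15.5 ± 1.59 rpm in spt4△.

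Directly after T1 both strains held only a few rpm. Of the reads at T1 and the next position together, 2.98% lay at the latter in WT (80 of 2689, exact 95% interval 2.37 to 3.69) and 0.826% in spt4△ (2 of 242, 0.1 to 2.95). The ratio of the next position to T1 was 0.0298, 0.0218 and 0.0371 in WT and 0.0116, 0.0099 and 0 in spt4△, without overlap (exact permutation p = 0.1), but on 2 reads in spt4△. Limma did not call the position (log2 change -0.93, adjusted p = 0.18). On the log2(rpm + 1) scale the largest rise in ETS2 came 7 positions after T1. At 6746 the WT libraries held 2.00, 3.25 and 2.84 rpm and the spt4△ libraries 51.9, 47.9 and 65.1 rpm, which is 25, 21 and 20 reads. The rise was 20.4-fold in the means and 3.92 ± 0.33 on the log2(rpm + 1) scale (limma adjusted p = 6.8e-06), without overlap of the libraries. With pseudocount 10 it was 2.35, under the 2.73 of 6673. At 6742, 3 positions after T1, WT held 7.98, 11.5 and 12.8 rpm and spt4△ 0, 4.56 and 0 rpm, the latter 2 reads in all where 13.2 would match the WT mean (log2 change -2.71, limma adjusted p = 0.0048).

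The next comparison was how much of the ETS2 signal lay beyond T1. The 119 positions after T1 held 174, 222 and 343 rpm in WT and 407, 424 and 400 rpm in spt4△. The strains did not overlap, and the mean was 1.67 times higher in spt4△ (246 ± 87.3 and 410 ± 12.2 rpm, exact permutation p = 0.1). The spread of WT was wide, with WT replicate 3 at nearly the level of spt4△. As a share of all ETS2 reads, the part after T1 was 5.03%, 6.60% and 8.48% in WT and 8.34%, 8.11% and 8.79% in spt4△. Wilson 95% intervals ran from 4.80 to 5.26, 6.25 to 6.97 and 8.20 to 8.77 in WT and from 7.29 to 9.52, 7.06 to 9.30 and 7.41 to 10.4 in spt4△. WT replicate 3 lay inside all 3 intervals of spt4△, and the shares, 6.70 ± 1.73% and 8.41 ± 0.343%, overlapped between the strains (log2 difference 0.36, exact p = 0.3). That difference was 0.17 without WT replicate 1 and 0.55 without WT replicate 3.

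The next value was the ratio of the mean per position after T1 to that before it in ETS2. Its log2 value was -4.61, -4.19 and -3.80 in WT and -3.83, -3.87 and -3.75 in spt4△, a difference of 0.39 with overlap (exact p = 0.3). It was 0.18 without WT replicate 1 and 0.59 without WT replicate 3. With 30 positions on each side of T1 it was 0.67, and with the last 200 positions of 25S as reference 1.04, both without overlap (exact permutation p = 0.1), so the outcome depended on the reference. These 25S positions held 218 ± 13.8 rpm in WT and 184 ± 4.56 rpm in spt4△, so 25S was lower and the spacer after T1 higher in the deposited scaling.

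In the Reb1/Nsi1 site, 4 of 11 positions were called higher and 0 lower (edgeR 3 and 0). As shares, limma called 36.4% higher and 0% lower, beside 25.2% and 21.0% over the gene, where edgeR called 27.1% higher. The site held 17.4, 21.5 and 36.4 rpm in WT and 72.6, 45.6 and 74.9 rpm in spt4△, the latter being 35, 20 and 23 reads. Within it, 6765 rose from 1.40, 1.26 and 1.02 rpm to 12.4, 4.56 and 19.5 rpm (log2 change 2.38 ± 0.51, limma adjusted p = 0.0028), on 6, 2 and 6 reads. The first base, 6757, and the last, 6767, held 1 read or none in each spt4△ library and were not called. Without spt4△ replicate 1, position 6757 was called lower (limma adjusted p = 0.039). That call rests on 0 reads in spt4△ replicates 2 and 3, and the WT values there lay under the spt4△ floor.

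Around the site, the 10 positions before it held 2.18 ± 1.16 rpm per position in WT, beside 7.75 ± 1.65 rpm in spt4△. The 10 after it held 1.47 ± 0.569 rpm in WT and 2.06 ± 0.228 rpm in spt4△, on 10, 8 and 7 reads in spt4△. The log2 ratio of after to before was -0.30, -0.46 and -0.73 in WT and -2.04, -2.29 and -1.36 in spt4△, a difference of -1.40 without overlap (exact permutation p = 0.1). It was -0.62 with windows of 5 positions (exact permutation p = 0.3) and 0.11 with windows of 20, which then take in T1, so the step depended on the window. The ratio of the site to the positions before it overlapped between strains (-0.55, exact p = 0.3) and turned sign with windows of 5 and of 20.

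Past the site, occupancy was near the limit of spt4△. Of the 91 positions, 77 held under 3 reads in every spt4△ library and 27 held none. Limma called 3 higher and 4 lower, 3.30% and 4.40% beside 25.2% and 21.0% over the gene. Among the lower, 6797 held 11, 9.56 and 15.4 rpm in WT and 3 reads over the 3 spt4△ libraries, where 14.7 would match the WT mean (limma adjusted p = 0.0065). The last position of ETS2 held at most 0.361 rpm in WT and 2 reads in spt4△ replicate 1 only.

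The base at which the RNA ended also differed between strains, in a comparison added after seeing the data. Over the 195 positions from the first Rnt1 residue to the end, with T1 left out, A was the last base of 47.2%, 46.7% and 47.9% of the reads in WT and of 21.7%, 31.0% and 31.7% in spt4△. U was the last base of 13.9%, 15.1% and 14.8% in WT and of 37.3%, 28.2% and 31.2% in spt4△. The libraries did not overlap for either base, and A stood at 32.8% and U at 33.8% of the positions. The means also differed for C, at 9.0% in WT and 16.1% in spt4△, and for G, at 29.1% and 23.5% (each exact permutation p = 0.1, adjusted to 0.125 over 35 such shares).

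In the rest of the gene, A was the last base of 34.4% of the reads in WT and 29.5% in spt4△, and U of 25.2% and 30.2%. Divided by that share, A over the 195 ETS2 positions was at 1.38 ± 0.0235 in WT and 0.951 ± 0.157 in spt4△, and U at 0.580 ± 0.0318 and 1.07 ± 0.129 (both exact permutation p = 0.1, without overlap). Among the single positions called by limma, those ending in A were higher at 8 and lower at 14 of 65. Those ending in U were higher at 18 and lower at 0 of 77 tested (edgeR 19 and 0), those in C higher at 10 and lower at 1 of 24, and those in G higher at 3 and lower at 2 of 43. As shares, A was higher at 12.3% and lower at 21.5%, beside 16.7% and 32.2% of the positions ending in A over the gene. U was higher at 23.4% and lower at 0%, beside 35.1% and 14.1%, so over the gene too the higher calls outnumbered the lower at U and not at A. C was higher at 41.7% and lower at 4.17%, beside 27.3% and 18.4%, and G higher at 6.98% and lower at 4.65%, beside 21.9% and 18.9%. After T1 alone, A took 68.1 ± 1.11% of the reads in WT and 51.4 ± 9.16% in spt4△, and U 12.6 ± 0.667% and 32.6 ± 7.03%. Read depth was lower in spt4△ throughout, and its part in these shares was not tested.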

How the data were processed

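Pol I NET-seq was compared between 3 WT and 3 spt4△ libraries. The authors removed PCR duplicates by molecular identifiers and trimmed reads with cutadapt 1.12. They aligned to R64-1-1 with STAR 2.7.1a without splicing, sorted and indexed with SAMtools 1.6 and counted read ends with bedtools 2.26.0, adding both gene copies. The deposited values are rpm of the library total up to T1. The authors also deposited a ratio of the strains and a p-value per position, which are their own comparison and were not used. Of 41148 values, 99.97% were whole multiples of 1 read within 0.1 read, and 11 were not, so reads were recovered for depth and count tests.

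Positions and bins were fitted over the whole gene with limma 3.58.1 (eBayes with trend, pseudocount 1, no filter) in R 4.3.3. Alternatives were edgeR 4.0.16 on the recovered reads with and without TMM, DESeq2 1.42.0, pseudocounts 0.1 and 10, a minimum mean of 5 rpm, 2 other totals, other windows and each library left out. Scripts were tested on simulated data, with changes planted only where even the shallowest library was well covered. That test does not cover the low depth of most ETS2 positions in spt4△. Values with 1 number per library were compared by two-sided exact permutation tests, whose smallest p is 0.1. Structure was computed with RNAfold 2.7.2. Intervals are 95% and cover counting error only.

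Named positions were the marked residues (for runs the first and last), the ends of ETS2, the 5 highest in each strain and the 5 largest called changes without overlap in each direction, with named bins being those called. Other positions given in the text were chosen after their values were seen. Members, lists and tests were chosen with earlier results of these data known. The study calls the replicates biological triplicates, while the labels name no separate cultures, and p-values measure the spread between these libraries.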

Additional observations from a re-analysis of the deposited data

How the results depend on the processing

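Of 247 alternatives to the exact tests, 234 kept the direction, and 0 of 296 for the named positions turned the sign of a call. These counts include alternatives that could not change the direction. The replicate block leaves the difference as it was, as does leaving out a position that a value does not use. The positions named for the largest changes were picked without overlap, so leaving out a library could not turn them. Named positions not called in the main fit are also counted, and they had no call to turn. Some of their fitted log2 changes did turn sign. That of 6662 went from 0.08 to -0.05 with the median position as the total and to -0.44 with the spacers. That of 6697 went from -0.67 to 0.36 without spt4△ replicate 3. That of the last position of ETS2 went from 0.54 to -0.25 without spt4△ replicate 1. The floor of 3 reads per position was not reached in any spt4△ library at 103 positions. It served as a description only, and positions under it were still fitted and could be called, as 12 of the 17 lower calls were. With a minimum mean of 5 rpm, 10 positions were lower, beside 1454 over the gene. With the spacers as the total, which moved the median position by -0.50, 21 positions were higher and 30 lower and 5 bins higher and 6 lower. Over the gene, 578 positions were then higher and 2945 lower, and 60 bins higher and 427 lower. The log2 difference turned to -0.081 for ETS2, -0.12 before the Rnt1 residues, -0.33 between them and T1 and -0.18 after the Reb1/Nsi1 site. With the median position as the total, which moved that position by -0.13, 2 bins were lower, beside 250 over the gene. With each library left out in turn, higher positions numbered 24 to 44, lower positions 10 to 23 and higher bins 7 to 9. Over the gene these numbered 1219 to 1774, 1075 to 1520 and 192 to 227. As a percent of ETS2, the log2 difference before the Rnt1 residues (-0.04) was 0.071 without position 6662 and -0.095 to 0.017 with 1 library left out, that of the Rnt1 residues (0.09) was -0.022 without 6662, and that after the Reb1/Nsi1 site (-0.10) was -0.22 to 0.071 with 1 library left out. At the edges of the Rnt1 residues it was -0.20 (first edge, windows of 5) and 0.060 (second edge, windows of 20). At the Reb1/Nsi1 site it was 0.24 and 0.42 (site against before, windows of 5 and 20) and 0.11 (after against before, windows of 20). The causes were not tested. The replicate numbers were not taken to pair the samples. Deviations of same-numbered libraries correlated at 0.01, 0.02 and -0.05, but at the low depth of spt4△ such values cannot exclude a pairing. The paper lists a separate forward primer for each replicate number. With a replicate block, 38 positions were higher and 15 lower and 9 bins higher and 0 lower. Over the gene, 1746 positions were then higher and 1488 lower, and 227 bins higher and 208 lower. The paired exact test cannot go below 0.25.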

Other observations

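At 4 places the reads of a peak and of the base just after it were divided differently in the strains. The pairs were picked after their values were seen, and no explanation was tested. Their sequences are shown with the second base of each pair in capitals, 12 bases before it and 8 after.
Position 6681 (chrXII:460881-460901): guacuggcaggaGccggggcc
Position 6705 (chrXII:460857-460877): uuuagagagaagUagacugaa
Position 6717 (chrXII:460845-460865): uagacugaacaaGucucuaua
Position 6746 (chrXII:460816-460836): uugucuuaagaaUucuaugau
Of the reads at 6680 and 6681 together, 5.15% lay at 6681 in WT (218 of 4235) and 14% in spt4△ (12 of 86, exact 95% interval 7.42 to 23.1). Of the reads at 6704 and 6705 together, 7.76% lay at 6705 in WT (166 of 2139) and 28.8% in spt4△ (32 of 111, exact 95% interval 20.6 to 38.2). Of those at 6716 and 6717, 7.49% lay at 6717 in WT (160 of 2135) and 39.7% in spt4△ (48 of 121, 30.9 to 49.0). Of those at 6745 and 6746, 5.07% lay at 6746 in WT (63 of 1243) and 52.4% in spt4△ (66 of 126, 43.3 to 61.3). The ratio of the second base to the first was higher in all spt4△ libraries at each of the 4 (exact permutation p = 0.1). At 6717 the spt4△ libraries differed widely, with ratios of 2.00, 0.325 and 0.524. The intervals pool the reads of the 3 libraries and do not cover the spread between them. The first base of the last 3 pairs held 80.5 ± 13.2 and 65.6 ± 9.44 rpm at 6704, 81.1 ± 19.3 and 61.5 ± 33.7 rpm at 6716 and 49.8 ± 20.3 and 50.4 ± 16.8 rpm at 6745 (WT and spt4△, SD, n = 3 each), and none of the 3 was called by limma, while 6680 was called lower. At 6662 and at T1, the base after the peak held a share no larger in spt4△ than in WT.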
